A study of Homo sapiens with 4 samples.

Results

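The interferon-stimulated genes described here are a set of 40 human genes that interferons are known to switch on, out of 60605 annotated genes measured by RNA sequencing in OVCAR3 cells. They were chosen by name and were divided into the 32 genes with a mean of at least 1 FPKM over the 4 libraries and the 8 genes below it. FPKM, the fragments of a transcript divided by its length and by the mapped fragments of the library, is a level per length of transcript, so that genes can be compared with each other. The genes nearest to the dividing line were SAMD9L (1.02 FPKM) and DDX60L (1.25 FPKM) above it and DDX60 (0.922 FPKM) and IFIT2 (0.894 FPKM) below it.

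Interferons are secreted proteins that cells release on sensing viral or misplaced nucleic acid. Type I and type III interferons bind receptors that activate the kinases JAK1 and TYK2, which phosphorylate STAT2 among others, and STAT2 joins IRF9 in a complex that binds the interferon-stimulated response element (ISRE) in the promoters of its targets. The products of those targets block viral entry, translation and replication, and several of them (STAT2, IRF7, IRF9, RIG-I) are parts of the sensing and signalling chain itself. Damage to nuclear DNA is known to engage the same chain in some cells.

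OVCAR3 is an established line of serous ovarian carcinoma cells (high grade) grown from malignant ascites. Etoposide, a poison of topoisomerase II that leaves breaks in DNA, was given at 1.7 µM for 24 h to 2 cultures, and 2 control cultures received the vehicle DMSO. Both groups had first been held in 100 ng/ml nocodazole, which blocks mitosis, for 16 h and released for 3 h, so that the controls carry that treatment too. The labels call the samples of a group biological replicates and say no more of how they were separated, so that p-values measure the spread between these samples, all of 1 cell line.

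The deposited values rest on 47687126 to 66500749 read pairs per library, and 13482 to 13627 genes reached 1 FPKM in a library. Epithelial markers (31.7 to 1266 FPKM) and markers of serous carcinoma (7.19 to 258 FPKM) were present, as the label of an ovarian adenocarcinoma cell calls for. However, 4 of 6 and 5 of 6 of them were lower in both etoposide libraries than in both DMSO libraries, against 19% of all genes tested. The 4 epithelial markers were the keratins KRT7, KRT8, KRT18 and KRT19. EPCAM was higher without overlap (124 and 125 FPKM in DMSO, 127 and 134 FPKM in etoposide), and CDH1 overlapped. The summed level of the 6 epithelial markers was 2784 and 2434 FPKM in DMSO and 1867 and 1948 FPKM in etoposide. KRT8 alone had 1266 and 1055 FPKM in DMSO and 772 and 821 FPKM in etoposide. Of 8 leukocyte markers the highest value was 1.02 FPKM (CD14), and PTPRC, CD3E, ITGAM and HLA-DRA stayed under 0.1 FPKM. The summed level of 6 fibroblast markers was 6.93 and 6.99 FPKM in DMSO and 8.40 and 8.18 FPKM in etoposide, with COL3A1 and DCN near 0. The highest level of a single fibroblast marker was 4.36 and 4.42 FPKM in DMSO and 6.11 and 5.80 FPKM in etoposide. Of the 4 fibroblast markers tested, 2 lay above and 2 below DMSO without overlap, where 28.9% and 19% of all genes tested did so. The summed level of 4 endothelial markers was between 0.637 and 1.11 FPKM. The part of these markers in the results below was not tested. In bulk RNA, fewer cells that use a gene and less of its RNA per cell cannot be told apart.

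Of the 40 interferon-stimulated genes, 32 (80%) had a mean of at least 1 FPKM, against 61.1% of the 22185 genes tested. A mean of at least 10 FPKM was found for 7 (17.5%), against 25.2% of the genes tested, and IFITM3 alone passed 100 FPKM. The bases of these shares differ, since all genes tested had a mean of at least 0.1 FPKM and OAS2 and XAF1, counted among the 40, did not. The order began with IFITM3 (132.7 FPKM), DTX3L (34.2 FPKM), IFITM2 (27.5 FPKM), PARP9 (21.8 FPKM), ISG15 (17.9 FPKM), STAT2 (13.5 FPKM) and PARP14 (12.9 FPKM). OASL (0.124 FPKM), OAS2 (0.0376 FPKM) and XAF1 (0.0056 FPKM) stood at the other end. Summed over all 40 genes, the level was 350 and 330 FPKM in DMSO and 346 and 361 FPKM in etoposide. These sums overlap, but IFITM3 makes up a large part of them, and without it the sums were 196 and 202 FPKM in DMSO and 225 and 233 FPKM in etoposide, which do not overlap. IFITM3 was itself lower in both etoposide libraries, so that leaving it out favours a higher sum there. Genes with high levels weigh most in such sums. DTX3L, PARP9, PARP12 and PARP14 together had 56.7 and 70.3 FPKM in DMSO and 79.6 and 85.6 FPKM in etoposide. The sums therefore do not describe a shift of every member. Estimated from coverage and length, the median member rested on 355 to 465 fragments in a library, and 34 or 35 members had at least 100.

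**Figure D1:**
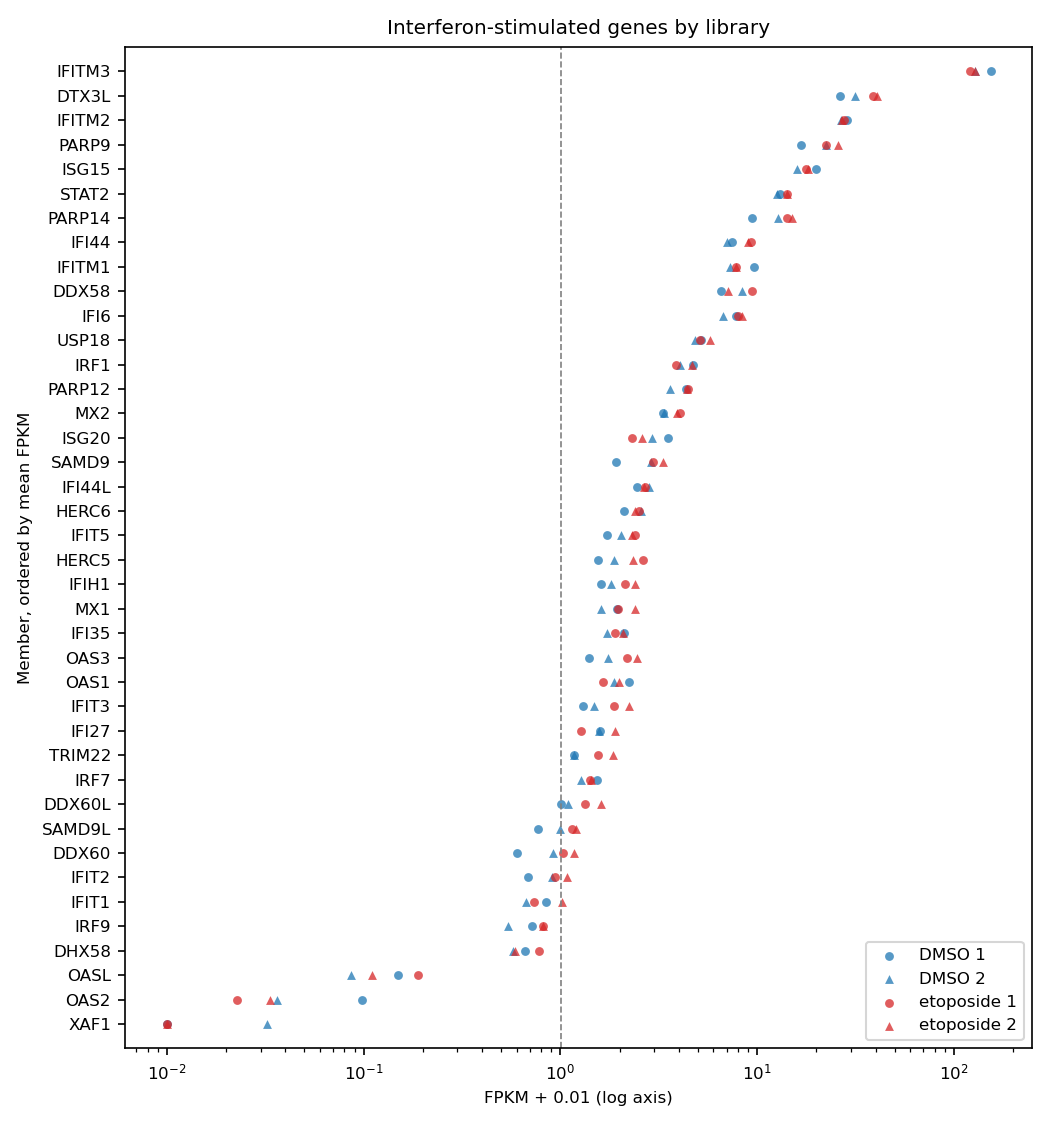
FPKM + 0.01 (horizontal log axis) of the 40 interferon-stimulated genes, ordered by mean, with 1 point for each library (blue, DMSO; red, etoposide; circles, replicate 1; triangles, replicate 2) and a dashed line at 1 FPKM. IFITM3 stands above 100 FPKM in all 4 libraries, the points of most genes between 1 and 10 FPKM lie close together, and OASL, OAS2 and XAF1 lie far below the rest.

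Most of the promoters found for these genes held the letters of the ISRE. RefSeq promoters (build GRCh38.p14), from 250 bases before to 50 bases after a start site, were found for 31 of the 40 genes and not for DHX58, IFIT2, IFITM2, IRF7, MX2, OAS2, OASL, TRIM22 and USP18. The core of the ISRE, searched as GAAANNGAAA on both strands with overlapping matches counted, was present for 22 of these 31 genes (71.0%), against 4.38% of the 27305 genes with a promoter (3.57% of 35116 promoters of the same length). The gamma-activated site, TTCNNNGAA, an element of the response to interferon gamma that reads the same on both strands, was present for 9 of 31 (29.0%), against 9.38% of genes. A match is a description of letters and not evidence of binding. The stretches below hold the matches of the member with the highest level (IFITM3), of ISG15, of DTX3L, of the 3 members with the largest differences upward (OAS3, HERC5 and IFIT3, at the second of its RefSeq starts) and of ISG20, the member with the largest difference downward. Capitals mark every match to the core in either direction, with 25 bases on each side where the stretch does not run more than 20 bases past the start, and each is written 5′ to 3′ on the strand of its gene. They lie, in the order printed, at chr11:320861-320937 (minus strand), chr1:1013359-1013424 (plus), chr3:122564307-122564357 (plus), chr12:112938306-112938493 (plus), chr4:88456969-88457079 (plus), chr10:89332410-89332512 (plus) and chr15:88638922-88638981 (plus).
IFITM3: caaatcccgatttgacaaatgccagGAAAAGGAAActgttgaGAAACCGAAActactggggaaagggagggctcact
ISG15: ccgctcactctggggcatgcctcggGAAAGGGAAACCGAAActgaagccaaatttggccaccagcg
DTX3L: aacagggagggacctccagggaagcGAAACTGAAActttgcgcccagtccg
OAS3: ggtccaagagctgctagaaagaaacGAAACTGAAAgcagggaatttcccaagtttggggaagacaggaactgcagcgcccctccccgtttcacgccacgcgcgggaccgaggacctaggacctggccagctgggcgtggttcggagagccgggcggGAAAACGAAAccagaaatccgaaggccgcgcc
HERC5: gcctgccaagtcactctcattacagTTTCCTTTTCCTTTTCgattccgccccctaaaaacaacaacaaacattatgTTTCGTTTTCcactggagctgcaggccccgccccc
IFIT3: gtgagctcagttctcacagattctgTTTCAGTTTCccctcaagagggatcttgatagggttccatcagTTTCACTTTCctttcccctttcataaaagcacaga
ISG20: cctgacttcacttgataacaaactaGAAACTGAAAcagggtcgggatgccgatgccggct

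In ISG15 the matches overlap and begin 113 and 107 bases before the start. In IFITM3 they begin 52 and 35 bases before it, and in OAS3 they lie farther apart, at 143 and 12 bases. The match of DTX3L, at chr3:122564332-122564341, is also the match in the second RefSeq promoter of PARP9, which is transcribed in the opposite direction, so that 1 element lies 6 bases before the start of DTX3L and 41 bases before that of PARP9. ISG20 and OAS3, the members with the largest differences between groups in each direction, both hold the letters GAAACTGAAA. These letters are common in the set: DTX3L, DDX60, IFITM1 and SAMD9 hold them too, and PARP9, IFIT3, IFIT5 and IFI44 on the other strand.

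**Figure D2:**
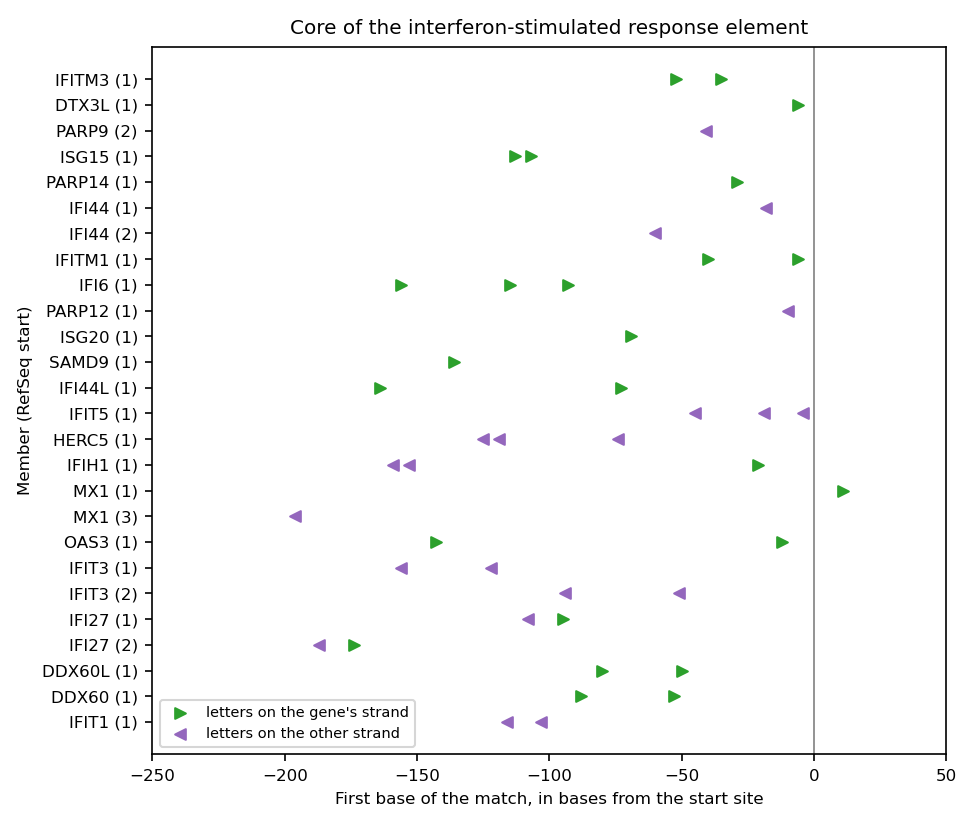
Position of the first base of each match to the ISRE core (horizontal axis, bases from the RefSeq start site at 0, within the 250 bases before and 50 bases after it) in the promoters of the 22 members with a match, ordered by mean FPKM, where numbers in brackets count the RefSeq starts of a gene. Green triangles mark letters on the strand of the gene and purple triangles the other strand; the farthest match begins 196 bases before the start, and that of the first start of MX1 lies after it.

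No interferon-stimulated gene passed an adjusted p of 0.05 between etoposide and DMSO with limma on log2(FPKM + 0.1), and 0 of the 22185 genes tested did (0% higher, 0% lower). The study itself selected genes past that threshold, with a cut on fold change, by DESeq2 on gene counts. The 0 therefore belongs to limma on FPKM with 2 libraries in each group, and the methods were not compared. The members tested were 38, since OAS2 and XAF1 stayed below the minimum mean of 0.1 FPKM, and the smallest adjusted p among them was 0.302, for DTX3L with limma (0.169 over all genes). At an unadjusted p under 0.05 in the same limma fit, 10 members were higher with etoposide (26.3%, against 7.06% of all genes tested) and 1 was lower (2.63%, against 4.85%). Limma's voom on estimated fragments gave 0 members past an adjusted p of 0.05 as well, with 14 higher and 0 lower at an unadjusted p under 0.05 (1994 and 1099 of all 22185 genes).

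More members were higher than lower. In 20 of 38 members both etoposide libraries lay above both DMSO libraries (28.9% of all genes tested did so), in 2 both lay below (19% of all genes), and in 16 the groups overlapped. The fitted difference was above 0 for 30 members (56.2% of all genes) and below 0 for 8 (43.8%). The median log2 fold change was 0.16 for the 32 members with a mean of at least 1 FPKM, against 0.035 for all genes at that level, and 0.27 for the 6 tested members below it, against 0.041 for all tested genes below it. The median of these 6 was 0.10 without the second DMSO library and 0.13 with a pseudocount of 1. Single differences ran from −0.38 (ISG20) to 0.55 (OAS3) on the log2 scale, that is from 0.770-fold to 1.46-fold. For 1 gene, the smallest p that exact permutation of 2 against 2 libraries allows is 0.333 (two-sided).

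**Figure D3:**
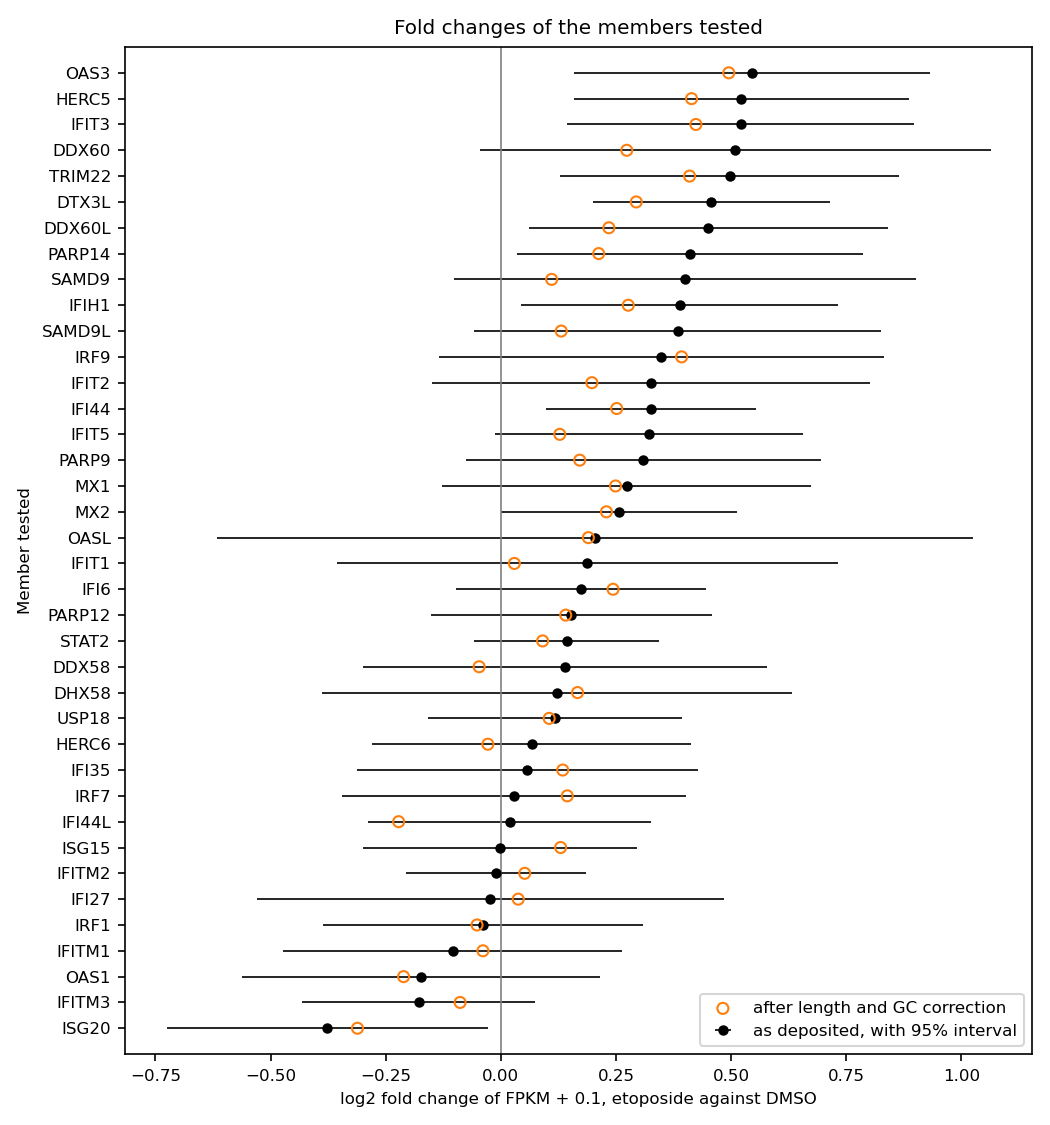
Differences between etoposide and DMSO on the scale of log2(FPKM + 0.1) (horizontal axis) of the 38 members tested, with 95% intervals from limma (black), and the same after a correction for transcript length and GC content (orange circles). OAS3 (0.55), HERC5 (0.52) and IFIT3 (0.52) are at the top and ISG20 (−0.38) at the bottom; 30 of the black points lie to the right of 0, and most orange circles of the upper members lie nearer to 0.

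Among the transcription factors, STAT2, a part of the complex that binds the ISRE, had 13.0 and 12.6 FPKM in DMSO and 14.1 and 14.2 FPKM in etoposide. Both etoposide libraries were above both DMSO libraries, by 0.14 on the log2 scale (SE 0.081), with an adjusted p of 0.493 in limma. IRF9, which brings the DNA contact to that complex, had 0.709 and 0.530 FPKM in DMSO and 0.811 and 0.807 FPKM in etoposide, and did not overlap either. Only 20.3% of its FPKM came from protein-coding transcripts, and another annotated gene, ENSG00000259529 (5.35 to 5.80 FPKM in the 4 libraries), shares 342 bases of exon with it, so that its level is uncertain. IRF1, an activator induced by interferon gamma, had 4.73 and 4.03 FPKM in DMSO and 3.87 and 4.66 FPKM in etoposide. IRF7, the regulator of type I interferon genes, had 1.52 and 1.27 FPKM in DMSO and 1.41 and 1.43 FPKM in etoposide. The groups overlapped for IRF1 and IRF7, and the differences were −0.04 and 0.03 on the log2 scale, where IRF1 shares up to 1015 bases of exon with its antisense gene IRF1-AS1 (0.780 to 1.26 FPKM).

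The sensors of double-stranded RNA differed among themselves. IFIH1, which encodes MDA5, the sensor of long double-stranded RNA, had 1.59 and 1.80 FPKM in DMSO and 2.11 and 2.39 FPKM in etoposide. It did not overlap between groups and was higher by 0.39 on the log2 scale (SE 0.14, adjusted p = 0.392 in limma). DDX58, which encodes RIG-I, the sensor of short RNA with a triphosphate end, had 6.52 and 8.37 FPKM in DMSO and 9.36 and 7.09 FPKM in etoposide. Its groups overlapped, and an annotated gene that shares up to 2096 bases of exon with it, ENSG00000288684, was at 0.591 and 0.0772 FPKM in DMSO and 0.0456 and 1.88 FPKM in etoposide; how fragments were divided between them was not tested. DHX58, which encodes LGP2, a regulator of both sensors, had 0.651 and 0.567 FPKM in DMSO and 0.773 and 0.579 FPKM in etoposide and overlapped. The helicases DDX60 and DDX60L are neighbours on chromosome 4 with a gap of 37851 bases. DDX60L had 1.00 and 1.08 FPKM in DMSO and 1.33 and 1.59 FPKM in etoposide, and DDX60 had 0.593 and 0.908 FPKM in DMSO and 1.02 and 1.16 FPKM in etoposide. Neither overlapped, with differences of 0.45 and 0.51 on the log2 scale, and of 0.23 and 0.27 after correcting for length and GC content.

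The IFIT genes encode proteins that bind viral RNA and block its translation, and stand next to each other on chromosome 10. IFIT3 had 1.30 and 1.48 FPKM in DMSO and 1.86 and 2.22 FPKM in etoposide. Both etoposide libraries were above both DMSO libraries, and the difference was 0.52 on the log2 scale (SE 0.15, 1.43-fold, adjusted p = 0.349 in limma). IFIT5 had 1.71 and 2.01 FPKM in DMSO and 2.38 and 2.30 FPKM in etoposide. IFIT2 had 0.676 and 0.894 FPKM in DMSO and 0.935 and 1.07 FPKM in etoposide. Neither overlapped, but IFIT2 and IFIT3 share 65 and 94 bases of exon with LIPA, a lysosomal lipase gene at 7.60 to 8.54 FPKM. IFIT1, often measured as a readout of the response to interferon, had 0.837 and 0.656 FPKM in DMSO and 0.726 and 1.01 FPKM in etoposide, and overlapped.

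The OAS family makes 2-5A, the messenger that activates RNase L, and its members differed in direction. OAS3 had 1.38 and 1.73 FPKM in DMSO and 2.18 and 2.44 FPKM in etoposide, the largest difference of all members (0.55 on the log2 scale, SE 0.16, 1.46-fold, adjusted p = 0.345 in limma). The groups did not overlap, but its most abundant transcript, at 0.342 and 1.31 FPKM in DMSO and 0.0807 and 1.21 FPKM in etoposide, gave −0.70. OAS1, its neighbour on chromosome 12, had 2.22 and 1.87 FPKM in DMSO and 1.64 and 1.97 FPKM in etoposide, with overlap and a difference of −0.17. OAS2, the next gene in that row, was listed at 0.013 to 0.088 FPKM, and OASL, a relative without synthetase activity, at 0.077 to 0.179 FPKM. ISG20, an exonuclease of single-stranded RNA, had 3.52 and 2.92 FPKM in DMSO and 2.31 and 2.59 FPKM in etoposide. It was the 1 member below DMSO at an unadjusted p under 0.05 (−0.38 on the log2 scale, SE 0.14, adjusted p = 0.401 in limma), and its groups did not overlap before or after the correction.

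MX1 and MX2 encode dynamin-like GTPases that trap viral nucleocapsids. MX2 had 3.30 and 3.34 FPKM in DMSO and 4.05 and 3.92 FPKM in etoposide. MX1 had 1.94 and 1.60 FPKM in DMSO and 1.95 and 2.37 FPKM in etoposide. Neither gene overlapped between groups, although the first DMSO library and the first etoposide library of MX1 differed by little, and both differences (0.26 and 0.27 on the log2 scale) turned negative when the most abundant transcript alone was used (−0.25 and −1.27). That transcript of MX1 was listed at 1.10 and 0.694 FPKM in DMSO and at 0 and 1.54 FPKM in etoposide, so that the share given to each transcript varied more between replicates than the gene did.

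The IFITM genes, which encode membrane proteins that hinder the fusion of viruses with the cell, were the most abundant family and were not higher with etoposide. IFITM3 had 154 and 128 FPKM in DMSO and 121 and 128 FPKM in etoposide. Both etoposide libraries were below both DMSO libraries, the second libraries of the groups by less than 1 FPKM, and the difference was −0.18 on the log2 scale (SE 0.10, adjusted p = 0.496 in limma). IFITM2 had 28.6 and 26.5 FPKM in DMSO and 27.6 and 27.1 FPKM in etoposide, and IFITM1 had 9.67 and 7.23 FPKM in DMSO and 7.76 and 7.78 FPKM in etoposide. Both overlapped, and the difference of IFITM2 (−0.01 on the log2 scale) was above 0 with TPM, with voom, with the most abundant transcript and after correcting for length and GC content. The 3 genes are close relatives on chromosome 11, and how reads that fit more than 1 of them were shared out was not tested.

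ISG15, a ubiquitin-like protein that is attached to newly made proteins, had 20.0 and 16.0 FPKM in DMSO and 17.7 and 18.1 FPKM in etoposide. The etoposide libraries lay between the DMSO libraries, with a difference of −0.002 on the log2 scale (95% interval −0.30 to 0.30), which was above 0 with TPM (0.07) and after the correction (0.13). HERC5, the ligase that attaches ISG15, had 1.54 and 1.85 FPKM in DMSO and 2.62 and 2.33 FPKM in etoposide. Both etoposide libraries were above both DMSO libraries, by 0.52 on the log2 scale (SE 0.15, 1.44-fold, adjusted p = 0.342 in limma). Its neighbour HERC6 had 2.11 and 2.56 FPKM in DMSO and 2.51 and 2.37 FPKM in etoposide, and USP18, the protease that removes ISG15 and restrains the receptor, had 5.15 and 4.85 FPKM in DMSO and 5.09 and 5.78 FPKM in etoposide. Both overlapped.

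DTX3L, PARP9 and PARP14 stand close together on chromosome 3 and had among the highest levels of the set. DTX3L, a ubiquitin ligase that works bound to PARP9 and is recruited to damaged DNA, had 26.3 and 31.4 FPKM in DMSO and 38.6 and 40.4 FPKM in etoposide. This was the smallest p among the members, with both etoposide libraries above both DMSO libraries and a difference of 0.46 on the log2 scale (95% interval 0.20 to 0.71, 1.37-fold), but the adjusted p was 0.302 in limma. All of its FPKM came from 1 annotated transcript. PARP9, its partner, had 16.7 and 22.4 FPKM in DMSO and 22.3 and 25.8 FPKM in etoposide, and overlapped narrowly, with a difference of 0.31 on the log2 scale (SE 0.16). The pair runs head to head and shares 139 bases of exon on opposite strands, whose fragments cannot be told apart without strand. PARP14, a mono-ADP-ribosyltransferase, had 9.42 and 12.8 FPKM in DMSO and 14.2 and 15.0 FPKM in etoposide, without overlap and higher by 0.41 on the log2 scale (SE 0.15). PARP12, a relative with zinc fingers that bind RNA, had 4.32 and 3.62 FPKM in DMSO and 4.44 and 4.37 FPKM in etoposide, and did not overlap. After correcting for length and GC content the differences of DTX3L and PARP14 were 0.29 and 0.21.

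IFI6 and IFI27 encode small proteins linked to mitochondria and cell death. IFI6 had 7.81 and 6.73 FPKM in DMSO and 7.98 and 8.41 FPKM in etoposide, and did not overlap. IFI27 had 1.58 and 1.56 FPKM in DMSO and 1.26 and 1.89 FPKM in etoposide, so that its etoposide libraries lay on both sides of the controls. XAF1, which opposes the apoptosis inhibitor XIAP, was listed at 0 in 3 libraries and at 0.022 FPKM in the second DMSO library.

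The other effectors divided in the same way. IFI44, an antiviral protein, had 7.45 and 7.01 FPKM in DMSO and 9.26 and 8.93 FPKM in etoposide, with no overlap and a difference of 0.33 on the log2 scale (SE 0.093, adjusted p = 0.342 in limma). Its neighbour and relative IFI44L had 2.45 and 2.82 FPKM in DMSO and 2.67 and 2.66 FPKM in etoposide, with overlap, and its difference of 0.02 turned to −0.22 after the correction. TRIM22, a ubiquitin ligase of the tripartite motif family, had 1.16 FPKM in both DMSO libraries and 1.54 and 1.83 FPKM in etoposide. It did not overlap and was higher by 0.50 on the log2 scale (SE 0.15, adjusted p = 0.357 in limma). SAMD9 and SAMD9L, neighbouring genes on chromosome 7 whose products restrict poxviruses, had 1.90 and 2.86 FPKM and 0.758 and 0.991 FPKM in DMSO. In etoposide SAMD9 had 2.94 and 3.31 FPKM and SAMD9L 1.14 and 1.19 FPKM. In both the second DMSO library was much closer to the etoposide libraries than the first, and their differences of 0.40 and 0.38 on the log2 scale were 0.11 and 0.13 after the correction. IFI35, a partner of NMI, had 2.09 and 1.71 FPKM in DMSO and 1.88 and 2.08 FPKM in etoposide, and overlapped.

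The differences varied with transcript length, as did those between the control libraries. Between the DMSO libraries, the log2 difference of replicate 2 from replicate 1 increased with transcript length over the 38 members (Pearson's r 0.73, Spearman's rho 0.76) and decreased with GC content (−0.73 and −0.68), while between the etoposide libraries the values were 0.02 and 0.12 for length and −0.06 and −0.08 for GC content. The fold change between groups had correlations of 0.61 and 0.60 with length and of −0.60 and −0.57 with GC content. These are descriptions across genes that share the 4 libraries, and length and GC content vary together. Of the 20 members with transcripts of at least 3000 bases, 14 lay above DMSO and 0 below it without overlap, with a median of 0.36 on the log2 scale. Of the 18 shorter members, 6 lay above and 2 below, with a median of 0.09. Over all genes tested, of any length, 28.9% lay above and 19% below without overlap. The fold change of all genes tested also rose with length (Spearman's rho 0.19). The shares among all genes of the same length were not computed. The cause of the difference between the DMSO libraries was not tested.

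**Figure D4:**
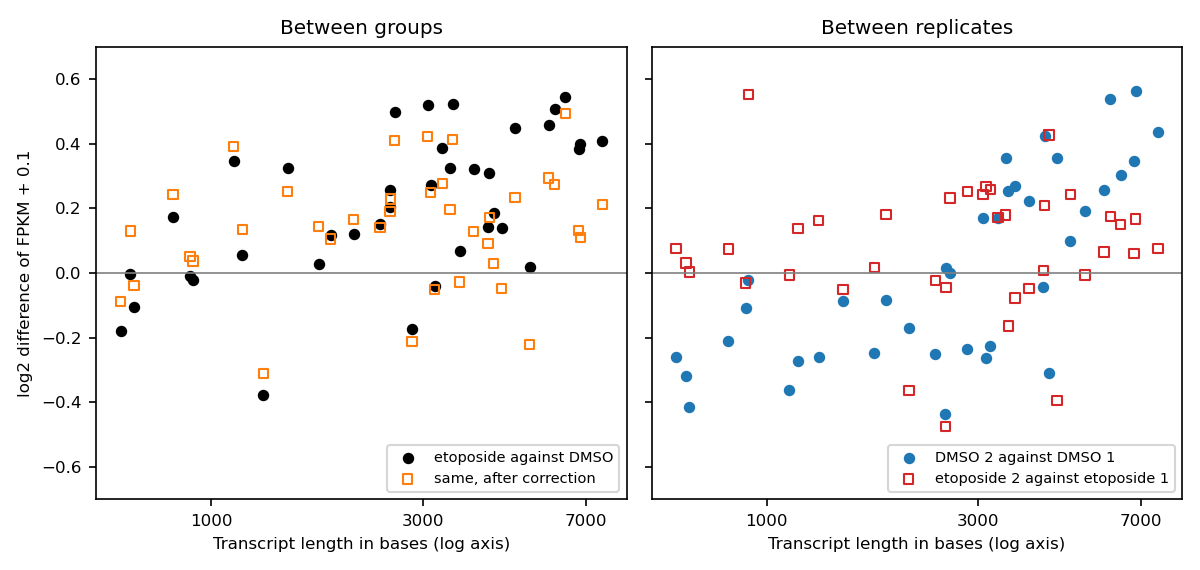
Log2 difference of FPKM + 0.1 (vertical axes) of the 38 members tested against transcript length in bases (horizontal log axes). On the left, etoposide against DMSO (black) climbs with length (Spearman's rho 0.60), and does so little after the correction (orange squares, 0.17); on the right, DMSO replicate 2 against 1 (blue) climbs with length (0.76), and etoposide replicate 2 against 1 (red squares) does so little (0.12).

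A correction of every library for length and GC content over all genes, by loess, brought the medians of both groups of members closer. The median of the long members was then 0.18 on the log2 scale and that of the shorter members 0.14, and their fold changes had correlations with length of 0.21 (Pearson) and 0.17 (Spearman). The members' median was 0.14, against −0.003 for all genes tested. After the correction 22 members lay above DMSO without overlap (23.7% of all genes) and 2 below (25% of all genes), and 10 had an unadjusted p under 0.05 upward (6.93% of all genes) and 1 downward (8.35%). These were not all the same members as before it. IFITM3, MX1 and SAMD9 then overlapped, and ISG15, IFITM2, IRF7 and IFI35 lay above DMSO. IFI44L lay below, beside ISG20. Among those with an unadjusted p under 0.05 upward in limma, IFI6 took the place of DDX60L. No member passed an adjusted p of 0.05, the smallest being 0.095 for DTX3L in limma. Before the correction, the median against the second DMSO library alone was 0.20, and against the first alone 0.15. The corrected median was not computed against each DMSO library alone.

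With the second DMSO library left out, 4 members passed an adjusted p of 0.05 in limma, namely DTX3L (0.58 on the log2 scale), PARP14 (0.63) and SAMD9 (0.68) upward and IFITM3 (−0.31) downward, where 6.06% of all genes were called higher and 2.66% lower. That fit has 1 DMSO library, which is assumed to vary like the etoposide libraries. With the first DMSO library left out in its place, 0 members passed, and the same 4 differences were 0.33, 0.19, 0.12 and −0.05.

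The 22 members with the ISRE core had a median level of 2.70 FPKM, and the 9 with a promoter entry and no such letters one of 1.94 FPKM. Of the 22, 14 lay above DMSO without overlap and 2 below (IFITM3 and ISG20), where 28.9% and 19% of all genes did so, and the median fold change was 0.32 on the log2 scale, or 0.19 after the correction. Of the 8 tested members without it, 3 lay above and 0 below, with medians of 0.10 and 0.03. Of the 8 tested members with no promoter entry, 3 lay above and 0 below as well, with medians of 0.16 and 0.18. The groups were not tested against each other. Every one of the 32 members with a mean of at least 1 FPKM had a protein-coding transcript as its most abundant one, and protein-coding transcripts made up a median of 93.8% of their FPKM (56.2% to 100%). In 12 members some exon is shared with another gene at a mean of at least 0.1 FPKM, in 9 of them with a gene on the opposite strand.

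Transcripts of the receptors, the kinases and STAT2 were present, and IRF9, whose level is uncertain, had a mean of 0.714 FPKM. Nearly all ligand transcripts were at or near 0. Of 22 interferon genes, 21 stayed at or under 0.153 FPKM in every library, and 7 were listed at 0 in all 4. The exception was IFNE, a type I interferon of the epithelium of the female reproductive tract, with 0.904 and 0.894 FPKM in DMSO and 0.891 and 0.882 FPKM in etoposide. It was the 1 interferon gene tested, and its difference was −0.02 on the log2 scale (95% interval in limma −0.40 to 0.36). IFNB1, the interferon first made after sensing, was at most 0.025 FPKM. IFNA1 had 0.067 to 0.153 FPKM, IFNL1 0 to 0.136 FPKM and IFNA5 0.016 to 0.048 FPKM. The 21 genes were not tested, and at such levels these data cannot tell whether any of them rose with etoposide.

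All 10 genes of receptors, kinases and signalling factors were tested, with a median fold change of 0.07 on the log2 scale (−0.04 after the correction). At an unadjusted p under 0.05, 0 were higher and 1 was lower (7.06% and 4.85% of all genes), and 0 and 2 lay above and below DMSO without overlap (28.9% and 19% of all genes). The 1 lower gene was IL10RB, a chain of the type III interferon receptor, with 29.8 and 29.3 FPKM in DMSO and 23.4 and 22.4 FPKM in etoposide (−0.37 on the log2 scale, adjusted p = 0.287 in limma). IFNGR1, a chain of the interferon gamma receptor, had 21.6 and 21.4 FPKM in DMSO and 20.5 and 20.2 FPKM in etoposide, lower without overlap (−0.08 on the log2 scale). JAK1 had 35.3 and 43.4 FPKM in DMSO and 41.1 and 41.7 FPKM in etoposide, and STAT3, the factor of interleukin-6 signalling, had 27.9 and 27.4 FPKM in both groups. Both overlapped.

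Of the 11 negative regulators, 4 lay above and 2 below DMSO without overlap, against 28.9% and 19% of all genes, and 1 each passed an unadjusted p of 0.05 (9.09%, against 7.06% upward and 4.85% downward). SOCS3, an inhibitor of receptor-bound Janus kinases, had 34.6 and 30.7 FPKM in DMSO and 20.7 and 21.4 FPKM in etoposide. Its values lay well apart, with a difference of −0.63 on the log2 scale (SE 0.090) and an adjusted p of 0.235 in limma. PTPN11, which encodes the phosphatase SHP2, had 27.0 and 37.6 FPKM in DMSO and 41.9 and 44.3 FPKM in etoposide, higher by 0.43 on the log2 scale and by 0.24 after the correction. The phosphatases PTPN2 (38.8 to 44.1 FPKM) and PTPN1 (28.3 to 30.5 FPKM), which act on the kinases, overlapped.

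Of the 12 genes of the induction pathway, which leads from sensed nucleic acid to interferon, 10 were tested, and 6 lay above and 0 below DMSO without overlap, or 5 and 2 after the correction, where 28.9% and 19% of all genes did so, or 23.7% and 25% after it. SAMHD1, a nucleotide hydrolase that limits such nucleic acid, had 5.33 and 6.48 FPKM in DMSO and 7.65 and 7.84 FPKM in etoposide. Before the correction it was the 1 gene of the list with an unadjusted p under 0.05 (0.39 on the log2 scale, adjusted p = 0.367 in limma). After it, 4 genes were higher and 0 lower at that threshold in limma (40% and 0%, against 6.93% and 8.35% of all genes). The smallest adjusted p of the list was then 0.188. IRF3, the factor that switches on IFNB1, had 13.5 to 15.1 FPKM and overlapped. The kinase TBK1 had 7.36 and 8.32 FPKM in DMSO and 8.50 and 8.87 FPKM in etoposide, and the adaptor TRAF3 had 6.46 and 7.22 FPKM in DMSO and 8.05 and 7.98 FPKM in etoposide. The DNA sensor CGAS (0.007 and 0 FPKM in DMSO, 0.077 and 0.044 FPKM in etoposide, from 12 estimated fragments or fewer) and the exonuclease TREX1 (0.010 to 0.050 FPKM), as well as the DNA sensor IFI16 of another list (0 to 0.025 FPKM), singled out after their values were seen, were not tested, and the adaptor STING1 had 2.29 to 2.85 FPKM.

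**Figure D5:**
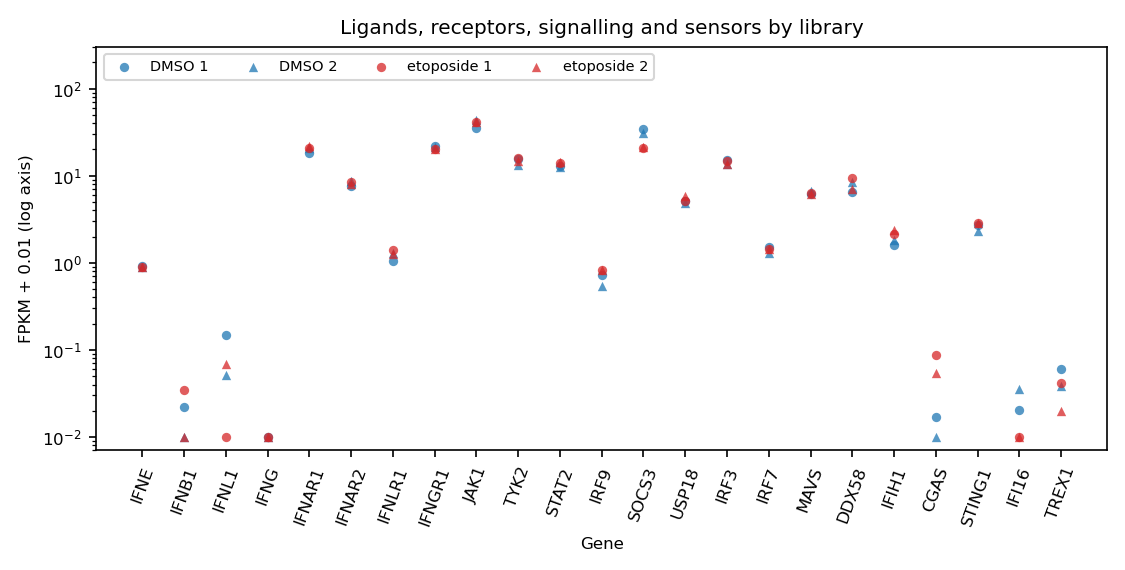
FPKM + 0.01 (vertical log axis) of 23 ligand, receptor, signalling and sensor genes in each library (blue, DMSO; red, etoposide; circles, replicate 1; triangles, replicate 2). The receptor and kinase genes lie between 1 and 50 FPKM, IFNB1, IFNL1, IFNG, CGAS, IFI16 and TREX1 lie at or under 0.136 FPKM, and SOCS3 shows the widest gap between groups among the genes drawn above 10 FPKM.

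A further 39 interferon-stimulated genes outside the 40 were counted in the same way. Of 35 tested, 27 were above 0 and 8 below, with 19 above and 4 below DMSO without overlap (54.3% and 11.4%, against 28.9% and 19% of all genes), 7 higher and 0 lower at an unadjusted p under 0.05 (20% and 0%, against 7.06% and 4.85%), and a median of 0.15 on the log2 scale, or 0.10 after the correction. After it, 15 lay above and 6 below without overlap (42.9% and 17.1%, against 23.7% and 25% of all genes). At an unadjusted p under 0.05 in limma, 8 were then higher and 1 lower (22.9% and 2.86%, against 6.93% and 8.35%). The 4 with the highest level were LGALS3BP, a secreted glycoprotein (259 and 224 FPKM in DMSO, 209 and 223 FPKM in etoposide), ADAR, the editor of double-stranded RNA (38.8 and 47.4 FPKM against 49.3 and 49.9 FPKM), PLSCR1, a phospholipid scramblase (31.6 and 31.1 FPKM against 39.6 and 38.1 FPKM), and UBE2L6, the conjugating enzyme of ISG15 (24.9 and 23.1 FPKM against 26.4 and 25.1 FPKM). LGALS3BP was lower and the other three were higher in both etoposide libraries than in both DMSO libraries. PLSCR1 had the smallest p of this list (0.31 on the log2 scale, adjusted p = 0.310 in limma).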

How the data were processed

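RNA of 4 OVCAR3 libraries was sequenced as read pairs of 100 bases with a stranded kit. HISAT2 (build GRCh38) and SAMtools gave the authors' alignments, from which StringTie 2.1.7 estimated the transcripts of Ensembl release 104 without a strand option, and the deposited files give an FPKM, a TPM and a coverage for each of 236853 transcripts as attributes (another unit than a plain column), with no read counts. FPKM were summed over each of 60605 genes, matched by gene ID. Genes with a mean of at least 0.1 FPKM (22185) were compared on log2(FPKM + 0.1) with limma 3.58.1 in R 4.3.3 (variance trend, robust fit, Benjamini-Hochberg adjustment, group as the only term), which was tested on simulated data. Length and GC content came from the annotated exons and the genome. Figures were drawn with matplotlib 3.10.9.

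The members, lists and tests were chosen with earlier results of these data known. All members with a mean of at least 1 FPKM were named, the 6 highest below it, and the 4 highest of each further list, beside those said to be singled out. 1 gene of the list of receptors, kinases and signalling factors is not reported here. The correction subtracts, in each library, a loess curve (span 0.3) on length and GC content. Alternatives were other pseudocounts, filters and scalings, TPM, the top transcript, voom, no trend, the replicate block and leaving out each library. The labels do not say whether replicate numbers pair the samples, and the main fit did not pair them. The correlation of replicate 2 minus 1 between groups was 0.013, a value that cannot decide on pairing. Over all genes tested, replicate 2 minus 1 varied with transcript length in DMSO and hardly in etoposide (Spearman's rho 0.32 and 0.02). The study's methods for sequencing speak of transfected cells and a mutant, and groups were taken from the labels.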

Additional observations from a re-analysis of the deposited data

How the results depend on the processing

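Over 55 named genes with a test, 786 of 873 values under the alternatives kept their direction and their side of an adjusted p of 0.05 in limma, 77 changed sign, 10 passed the threshold in the same direction and 0 lost it; the 10 all came without the second DMSO library. The count of genes called, 0 as reported, was 2 with the top transcript, 6 after the length and GC correction, 1 with voom and 5 to 1934 with 1 library left out (1934 without the second DMSO library), and that of members called was 0 to 4 with 1 library left out. The median log2 fold change of members at or above 1 FPKM was 0.23 with TPM, 0.13 with median ratio scaling, 0.13 with the top transcript, 0.13 after the length and GC correction, with or without the replicate block, and 0.15 to 0.22 with 1 library left out. That of members below 1 FPKM was 0.13 with a pseudocount of 1, 0.13 with the top transcript and 0.10 to 0.37 with 1 library left out, and the filter at 1 FPKM leaves no value for it. The cause of these shifts was not tested. The shares of all genes at an unadjusted p under 0.05 that were higher were 59.3% as reported, 75.8% with TPM, 47.5% with median ratio scaling and 45.4% after the correction, and 90.9%, 100%, 90% and 90.9% for the members. With the replicate number as a block, 0 genes and 0 members were called and both medians were as reported (0.16 and 0.27), and with the block beside the correction 0 genes were called.

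Signs changed as follows on the log2 scale. With TPM, IRF1 was at 0.027, IFITM2 at 0.057, ISG15 at 0.065, IFI27 at 0.041, IFNE at 0.045 and PTPN2 at 0.060. With median ratio scaling, IRF7 was at −0.0024, IFI44L at −0.013, STAT3 at −0.031 and IRF3 at −0.026. With the top transcript, IRF1 was at 0.089, IRF7 at −0.39, DDX58 at −0.34, OAS3 at −0.70, MX1 at −1.27, MX2 at −0.25, IFITM2 at 0.030, ISG15 at 0.037, IFI27 at 0.24, IFI35 at −0.11, IFI44L at −0.049, SAMD9 at −0.035, IFIT1 at −0.076, IRF9 at −0.0008, IRF3 at −1.73 and LGALS3BP at 0.00. After the length and GC correction, with and without the replicate block, DDX58 was at −0.047, IFITM2 at 0.052, ISG15 at 0.13, HERC6 at −0.028, IFI27 at 0.038, IFI44L at −0.22, JAK1 at −0.034, STAT3 at −0.046, PTPN1 at −0.019 and TBK1 at −0.0087. With voom, IRF1 was at 0.017, IRF7 at −0.029, IFITM2 at 0.0038, IFI27 at 0.017, STAT3 at −0.11 and IRF3 at −0.075. With 1 library left out in turn, the values ran for IRF1 from −0.17 to 0.090, for DDX58 from −0.058 to 0.34, for IFITM1 from −0.31 to 0.10, for IFITM2 from −0.064 to 0.044, for ISG15 from −0.16 to 0.16, for HERC6 from −0.068 to 0.20, for IFI44L from −0.077 to 0.12, for JAK1 from −0.068 to 0.23, for PTPN2 from −0.0995 to 0.086, for IRF7 from −0.096 to 0.15, for IFI35 from −0.080 to 0.19, for OASL from −0.034 to 0.44, for STAT3 from −0.012 to 0.015, for IRF3 from −0.072 to 0.086, for IFI27 from −0.30 to 0.25, for DHX58 from −0.061 to 0.30 and for IFIT1 from −0.026 to 0.40. The cause of these changes was not tested.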
